A study of Mus musculus with 2 samples.

Results

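The interferon regulatory factor genes Irf1, Irf2, Irf3, Irf4, Irf5, Irf7, Irf8 and Irf9 were described in mouse granulocyte-monocyte progenitors (GMP), the marrow precursors of neutrophils and monocytes. The members were chosen by name, not by level, and are 8 of the 43346 annotated genes in the tables. The series holds 1 group of 2 libraries of total RNA depleted of ribosomal RNA, each from 100 ng of RNA. The cells were primary cells of adult male C57BL/6J mice aged 5 to 6 weeks, with no treatment or altered allele named, and both libraries are tied to the same donor record. Replicate 1 held 49473848 and replicate 2 held 44260902 expected counts, which are reads assigned to features by an estimator. No condition was compared, so no test was made; each SD is the spread of this pair of libraries, part of which may be technical.

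Interferon regulatory factors are transcription factors that share an amino-terminal DNA-binding domain and recognise GAAA repeats. Some are switched on by protein signals: Irf3, Irf5 and Irf7 are phosphorylated downstream of pathogen sensors, and Irf9 binds DNA together with Stat2 after interferon binds its receptor. Irf1 is induced by interferon gamma, and Irf2 can compete with it for the same sites. Irf8 and Irf4 bind weakly alone and pair with partners such as PU.1. In marrow progenitors Irf8 is known for favouring monocytes and dendritic cells over neutrophils.

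The promoters of 3 members are shown because the searched letters of interferon response elements occurred in them. RefSeq windows (GRCm38.p6, from 250 bases before to 50 after each start site) were found for all 8 genes, in 11 windows, and 4 motifs were searched on both strands. GAAA, any 2 bases and GAAA again is the core of an interferon-stimulated response element, TTCNNNGAA is the gamma-activated site of interferon gamma responses, GGAA, any 2 bases and GAAA joins an Ets site (as for PU.1) to an Irf site, and TGANTCA is an AP-1 site. The 250 bases before the start are printed 5′ to 3′ on the coding strand, with every matched base in capitals.
Irf8, chr8:120736108-120736357, + strand: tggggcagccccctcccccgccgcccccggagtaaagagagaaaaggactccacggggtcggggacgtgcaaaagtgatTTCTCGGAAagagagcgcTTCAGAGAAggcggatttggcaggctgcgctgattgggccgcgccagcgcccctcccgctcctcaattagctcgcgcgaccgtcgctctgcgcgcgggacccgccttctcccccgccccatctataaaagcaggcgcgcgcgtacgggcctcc
Irf1, chr11:53769764-53770013, + strand: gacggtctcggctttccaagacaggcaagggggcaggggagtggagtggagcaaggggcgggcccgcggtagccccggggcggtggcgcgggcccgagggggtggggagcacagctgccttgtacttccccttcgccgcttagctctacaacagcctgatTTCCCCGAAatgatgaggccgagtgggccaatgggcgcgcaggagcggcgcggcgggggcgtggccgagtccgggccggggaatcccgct
Irf2, chr8:46739495-46739744, + strand: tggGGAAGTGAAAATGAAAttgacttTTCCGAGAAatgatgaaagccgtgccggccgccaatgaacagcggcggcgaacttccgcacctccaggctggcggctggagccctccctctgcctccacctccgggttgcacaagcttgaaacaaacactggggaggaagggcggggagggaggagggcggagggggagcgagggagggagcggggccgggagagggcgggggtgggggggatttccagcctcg
The Irf8 window held 2 gamma-activated-site matches, whose first bases lie at -171 and -153 relative to the start, and the Irf1 window held 1, at -90. The Irf2 window held a response element core and an Ets-Irf match that overlap, at -241 and -247, and a gamma-activated-site match at -224. No member held TGANTCA, which says only that these letters are not in these windows. Of all 32851 promoter windows of this length, 8.30% held the gamma-activated site, 3.44% the response element core, 2.72% the Ets-Irf site and 7.81% the AP-1 site. Counted by gene, over 27025 genes with a window, these shares were 9.55%, 3.99%, 3.16% and 8.97%. The share of genes with any of the 4 motifs was not taken. A match is a description of the letters and was not measured as a bound site here.

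In both libraries 6 of the 8 members were at 1 TPM or more, where 40.8% of the 21461 nuclear protein-coding genes did. TPM divides reads by transcript length and then scales to a fixed total in each library, so it can be set side by side between genes. Irf8 led the family, Irf3 and Irf1 followed, Irf9, Irf5 and Irf2 were at low single figures, and Irf7 and Irf4 were below 1 TPM in both libraries. Summed over the 8 genes, the level was 71.2 TPM in the first library and 79.4 TPM in the second. Their median was 4.03 and 4.73 TPM, against 0.17 and 0.20 TPM over all nuclear protein-coding genes. On log2(TPM + 1) the family median was 2.39 ± 0.09 (SD, n = 2). Nuclear small noncoding RNA genes held 77.5% and 72.4% of all TPM, so levels are also given rescaled, that is with nuclear protein-coding genes alone scaled to the total of the file; their share of all TPM was 19.1% (replicate 1) and 22.8% (replicate 2).

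**Figure D1:**
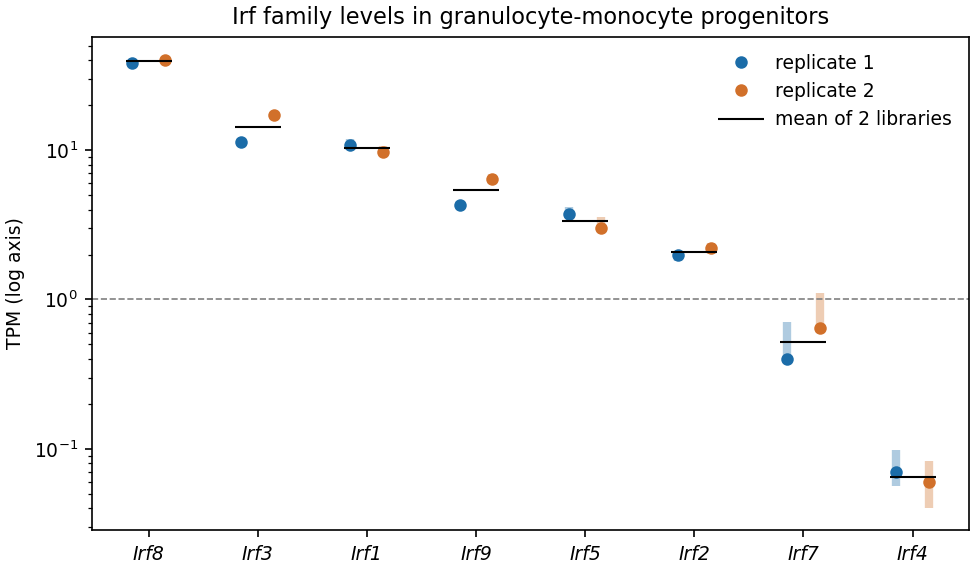
TPM (log axis) of each gene in replicate 1 and replicate 2, with the mean of the 2 libraries as a black line; the pale bars are the bounds of the deposited credibility intervals and the dashed line is 1 TPM. Irf8 lies at 38.5 and 40.2 TPM, above all others, and Irf7 and Irf4 lie below 1 TPM.

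Irf8 (ENSMUSG00000041515, chromosome 8 at 120736358 to 120756694 of mm10, + strand) was at 38.47 (replicate 1) and 40.21 TPM (replicate 2), from 14569 and 11578 counts. Rescaled, it was at 202 and 176 TPM, lower in replicate 2, so the 2 scales order the libraries differently. It made up 54.0% and 50.6% of the family's TPM and exceeded 96.5% and 95.8% of nuclear protein-coding genes. Its mean was 2.76 times that of Irf3, the next gene. On log2(TPM + 1) Irf8 exceeded the median of the other 7 members by 3.21 ± 0.21 (SD, n = 2), with 3.06 in replicate 1.

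Irf4 (ENSMUSG00000021356, chromosome 13 at 30749226 to 30766976, + strand), the closest relative of Irf8 and a factor of B cells, plasma cells and some dendritic cells, was at the bottom of the family. Its 49 and 29 counts came to 0.07 and 0.06 TPM. These counts are above the 3 that a count of 0 allows. Some genes that mark B cells or plasmacytoid dendritic cells were not detected: Cd79a, Ms4a1, Pax5, Ebf1, Siglech and Ly6d had 0 counts in both libraries. Of the 8 B and plasma cell markers, 7 were below 1 TPM in both libraries, and the summed 38.8 and 47.2 TPM of the list came almost wholly from Xbp1, a stress-response factor of many secretory cells, at 38.1 and 47.1 TPM. The 8 conventional dendritic markers summed to 2.53 and 4.69 TPM, and each had counts in at least 1 library. Of these 8, 0 reached 1 TPM in replicate 1 and 3 did in replicate 2. On rescaled TPM, 4 of them reached 1 in both libraries. The 5 plasmacytoid dendritic markers summed to 6.02 and 7.38 TPM, mostly from Tcf4 and Runx2. The part of such cells in the levels of Irf8 and Irf4 was not tested. In bulk RNA, fewer expressing cells and less RNA per cell cannot be told apart.

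Irf1 (ENSMUSG00000018899, chromosome 11 at 53770014 to 53778374, + strand), an activator of interferon gamma responses, was at 10.85 (replicate 1) and 9.72 TPM (replicate 2), from 1837 and 1824 counts. Irf2 (ENSMUSG00000031627, chromosome 8 at 46739732 to 46847458, + strand), its competitor, was at 1.98 and 2.21 TPM, from 657 and 561 counts. Irf1 therefore lay above Irf2 in both libraries with no overlap of their values. On the rescaled scale Irf1 was at 56.9 and 42.6 TPM and Irf2 at 10.4 and 9.68 TPM.

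Irf3 (ENSMUSG00000003184, chromosome 7 at 44997648 to 45002848, + strand), which is present before infection in most cells and is activated by the kinases Tbk1 and Ikbke, was at 11.40 (replicate 1) and 17.11 TPM (replicate 2). Irf5 (ENSMUSG00000029771, chromosome 6 at 29526625 to 29541871, + strand), which acts below Toll-like receptors in inflammatory cytokine responses, was at 3.74 and 3.01 TPM. Irf7 (ENSMUSG00000025498, chromosome 7 at 141262706 to 141266481, − strand), the factor that amplifies interferon alpha genes and is itself induced by interferon, was at 0.40 and 0.64 TPM, from 57 and 87 counts. Of these 3 signal-activated members, Irf3 was thus the highest and Irf7 the lowest in both libraries. Rescaled, Irf7 was at 2.10 and 2.80 TPM, above 1 in both libraries, and 7 of the 8 members reached 1 on that scale.

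Irf9 (ENSMUSG00000002325, chromosome 14 at 55603571 to 55610030, + strand), the DNA-binding subunit of the complex formed with Stat2, was at 4.31 (replicate 1) and 6.45 TPM (replicate 2), from 1557 and 1423 counts. Its partner Stat2 was at 1.07 and 1.29 TPM, below Irf9 in both libraries with no overlap of their values.

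By mean TPM the order was Irf8, Irf3, Irf1, Irf9, Irf5, Irf2, Irf7 and Irf4. In all 7 neighbouring pairs both values of the higher gene exceeded both values of the lower gene. Taken as ratios, the narrowest gaps were Irf3 over Irf1 and Irf9 over Irf5. In replicate 1 these were 11.40 against 10.85 TPM and 4.31 against 3.74 TPM. In that library the deposited intervals of Irf3, 10.7 to 12.1 TPM, and Irf1, 10.01 to 11.81 TPM, overlapped, as did those of Irf9, 4.10 to 4.59 TPM, and Irf5, 3.60 to 4.14 TPM. The file does not state the level of these intervals. With counts divided by the whole exonic length of each gene, a scale added after seeing the data, Irf5 came before Irf9, and their values overlapped.

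The members' counts were compared between the libraries. On log2 CPM (counts over the library total, scaled with edgeR's trimmed mean of M values), 0 of the 8 genes differed by more than 2-fold, where 6.78% of the 11143 nuclear protein-coding genes with enough counts did; with 8 genes, a count of 0 is near that background. Irf1, Irf2, Irf3 and Irf9 differed by 0.11, -0.11, 0.02 and -0.01 (replicate 2 relative to replicate 1). These 4 lay within 0.18, the median absolute difference over 8191 genes at 10 CPM or more. Irf8 was at -0.21. The members furthest apart were Irf7 at 0.71, Irf4 at -0.61 and Irf5 at -0.60, of which Irf7 and Irf4 rest on fewer than 100 counts in each library. For Irf5 the counts were 1094 and 665. In these libraries the difference moved with GC content: the median was 0.16 in the fifth of genes with the lowest GC and -0.17 in the fifth with the highest. With that trend removed, Irf5, whose leading transcript has 57.4% GC, was at -0.43 and Irf8 at -0.09, nearer 0, and Irf4 was at -0.63. Irf7 at 0.85, Irf3 at 0.17, Irf1 at 0.19, Irf2 at -0.16 and Irf9 at 0.03 were further from 0 than before. The sign of Irf9 changed. Irf1 no longer lay within 0.18, but that median was taken before the trend was removed.

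TPM and counts disagreed for several members. Irf3 had 41.6 and 43.4 CPM, a ratio of 1.04 (replicate 2 to replicate 1), while its TPM ratio was 1.5. Irf9 had 31.5 and 32.2 CPM, a ratio of 1.02, and its TPM ratio was also 1.5. Irf1 went the other way, with a CPM ratio of 1.11 and a TPM ratio of 0.896. The effective length used to compute TPM is a mean over transcripts weighted by their estimated levels. It was 0.801 times as long in replicate 2 for Irf3, 0.787 times for Irf9 and 1.43 times for Irf1. TPM also carries the scaling of each library to a fixed total, so length is not its only difference from CPM. Irf2, with an effective length ratio of 0.984, had a CPM ratio of 0.954 and a TPM ratio of 1.12. For Irf8 these ratios were 0.981, 0.888 and 1.05. Of the 8 genes, 4 had effective lengths that differed by over 1.2 times (the fourth was Irf7). Among protein-coding genes at 1 TPM or more in both libraries, a set without Irf7 and Irf4, 17.1% did. The labels give a size range of 200 to 712 for replicate 1 and 200 to 1000 for replicate 2. The part of that difference in these lengths was not tested. With 1 length per gene in both libraries, Irf3 was at 36.9 and 38.4 CPM per kb and Irf9 at 14.04 and 14.34 CPM per kb, and the order of the family was as on TPM.

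**Figure D2:**
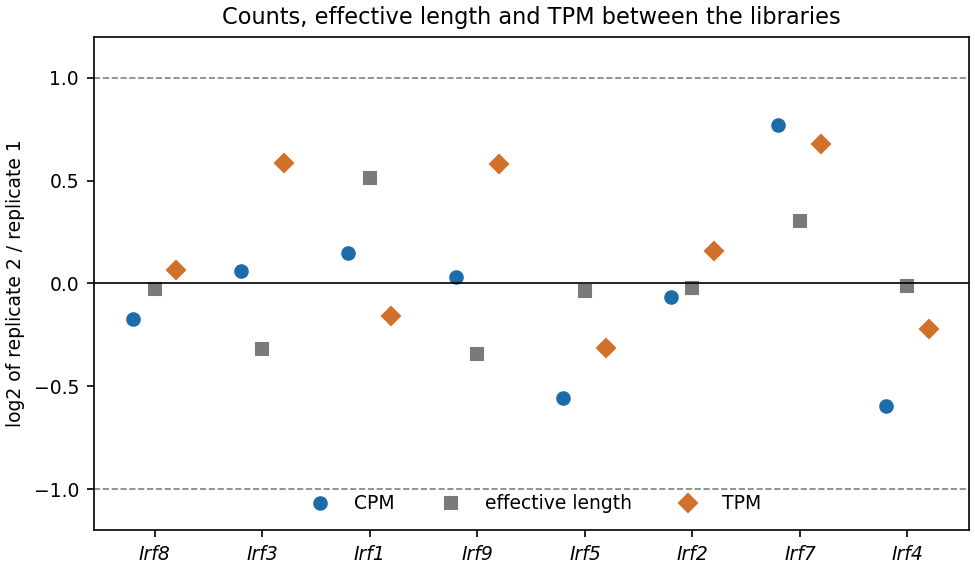
Replicate 2 relative to replicate 1, on a log2 axis, for CPM scaled to the library total (circles), effective length (squares) and TPM (diamonds) of each gene; dashed lines mark 2-fold. For Irf3 and Irf9 the circles lie near 0 (CPM ratios of 1.04 and 1.02) while the squares lie below 0 and the diamonds above it (TPM ratios of 1.5 for both).

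All 8 genes had whole counts (within 0.005) in both libraries and a deposited posterior SD of 0 for the count, so the estimator split none of their reads with another gene. Some annotated exons overlap those of neighbours on the opposite strand, and the strand setting of the counting was not given in the sources used here. An overlap with Tnpo3, a nuclear import receptor gene, covers 411 nt or 14.1% of the exonic bases of Irf5. It begins at 29540827, and the 2 Irf5 transcripts that reach it had 0 counts in both libraries; all 1094 and 665 counts of Irf5 lay in transcripts that end by 29537319. The overlap with Bcl2l12 covers 88 nt of Irf3, and that with Phrf1 covers 45 nt of Irf7. Irf9 shares 123 nt with Rnf31 on its own strand, and Irf8 lies within the annotated readthrough gene Gm20388 (3.72 and 6.12 TPM) with no shared exonic bases.

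Transcript shares separated the members into those with a single dominant form and those without. The tables list 52 transcripts for the 8 genes and give each as a percent of its gene, a split that rests on the estimator. Irf8-201, the full-length coding transcript (2847 nt), held 96.9% of Irf8 in replicate 1 and 94.7% in replicate 2. Irf2 has 1 transcript in the table. Irf9-202 held 72.7% and 69.4% of Irf9. Of the 7 genes with more than 1 transcript, 5 had the same leading transcript in both libraries; the exceptions were Irf3 and Irf7.

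The 2 transcripts of Irf4 show how little can separate forms. They differ by 3 coding bases, at chr13:30753445-30753447, shown here in capitals within the surrounding sequence from GENCODE M21, 5′ to 3′.
Irf4-201: tctctgccagcccagCAGgttcataactac
Irf4-202: tctctgccagcccaggttcataactac
The deposited shares gave Irf4-202 96.1% and 94.0% of the gene, but the posterior mean shares gave it 55.7% and 55.5%. With 49 and 29 counts over the gene, the share of each form is not fixed by these data.

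For Irf1 the libraries divided the reads differently. Irf1-202, a coding transcript, led in both, with 37.6% and 45.3%. Irf1-205, a processed transcript without an annotated reading frame, held 34.0% in replicate 1 (3.68 TPM, interval 2.99 to 4.30) and 0% in replicate 2 (interval up to 0.413). Irf1-201, a coding transcript that starts at 53770495, held 0% in replicate 1 (interval up to 0.494 TPM) and 29.0% in replicate 2 (2.82 TPM). Transcripts that start between 53770014 and 53770105, just after the promoter printed above, held 80.9% of Irf1 in replicate 1 and 54.5% in replicate 2, and those that start between 53770477 and 53770509 held 5.67% and 36.2%.

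Irf5 showed a like split between 2 starts. Irf5-201, from 29526625, held 69.5% and 100% of the gene. Irf5-202, from 29529282, held 30.5% in replicate 1 (1.14 TPM, interval 0.606 to 1.76) and 0% in replicate 2 (interval up to 0.490). Irf3 was the most divided member: Irf3-201, the full-length coding transcript of 2031 nt, held 28.3% and 16.8%, and 71.8% and 69.3% of the gene lay in 7 transcripts whose identifiers are absent from M21 and so carry no class here. Across the family, 18 of the 52 transcripts had deposited intervals that did not overlap between the libraries, where 39.0% of the 54635 transcripts of nuclear protein-coding genes with a count in both libraries had such intervals, so the share in the family was near that of all genes.

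Retained-intron transcripts, which keep an intron and are common in total RNA, took different shares of the members. They held 3.07% of Irf8 in replicate 1 and 4.82% in replicate 2, below the medians of 7.25% and 8.30% over 3876 protein-coding genes that have such a transcript. They held 13.9% and 29.9% of Irf9 and 13.4% and 9.26% of Irf1, above those medians in both libraries. In Irf7 they held 57.5% and 0%, on 57 and 87 counts.

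**Figure D3:**
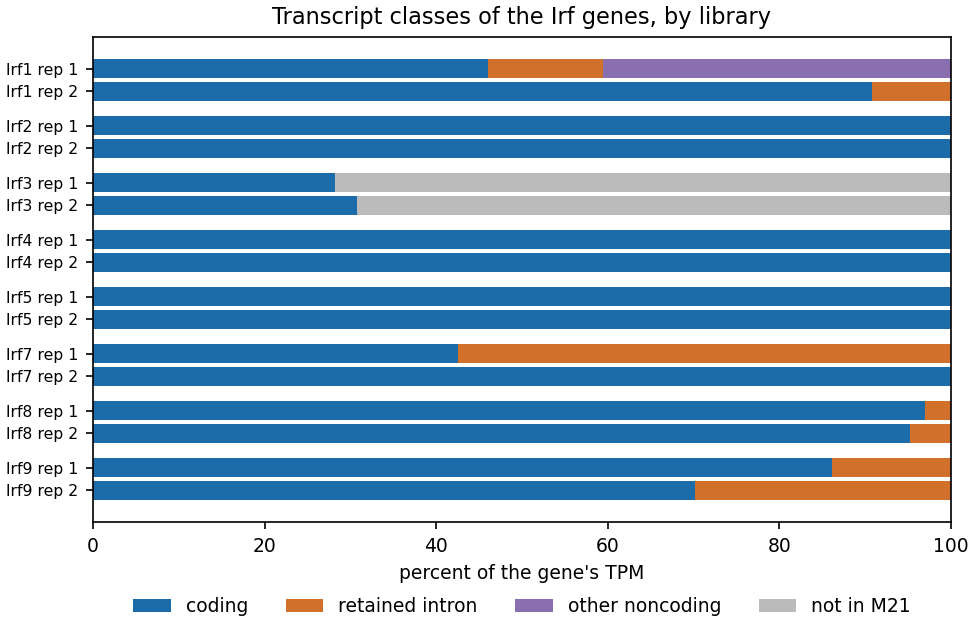
Percent of each gene's TPM in coding, retained-intron and other noncoding transcripts, and in transcripts absent from the M21 annotation, for replicate 1 and replicate 2. Irf8 is almost wholly coding in both libraries, Irf1 is 46.1% coding in replicate 1 and 90.7% in replicate 2, and most of Irf3 lies in transcripts absent from M21.

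Genes around the family were described by 8 lists of ligands, receptors, sensors, partners, targets and feedback genes. Each list's count at 1 TPM in both libraries stands beside the 40.8% of nuclear protein-coding genes that passed the same rule. All 10 interferon ligand genes, Ifnb1, Ifng, Ifna1, Ifna2, Ifna4, Ifna5, Ifnk, Ifne, Ifnl2 and Ifnl3, had 0 counts in both libraries, which allows up to 0.0606 CPM in replicate 1 and 0.0678 CPM in replicate 2, by counting error only. Of the 11 receptor and Jak-Stat genes, 10 reached 1 TPM in both libraries, with a list median of 8.27 TPM ± 1.83 (SD, n = 2). Ifngr1, a chain of the interferon gamma receptor, was at 70.9 and 82.2 TPM, Ifnar2, a chain of the interferon alpha and beta receptor, at 27.3 and 27.0 TPM, and the kinase gene Jak1 at 10.3 and 13.6 TPM. Ifnlr1, the specific chain of the interferon lambda receptor, was lowest at 0.10 and 0.04 TPM.

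Of the 16 sensors and kinases upstream of Irf3, Irf5 and Irf7, 12 reached 1 TPM in both libraries. The kinases led: Irak1, of the Toll-like receptor pathway, was at 11.9 and 12.96 TPM, Tbk1 at 7.25 and 7.59 TPM and Ikbke at 6.23 and 6.18 TPM. The endosomal RNA sensor Tlr3 had 0 and 1 counts. The list median was 4.05 TPM ± 0.686 (SD, n = 2).

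Of the 9 DNA-binding partners and corepressors, 5 reached 1 TPM in both libraries, beside 40.8% of nuclear protein-coding genes. Spi1, which encodes PU.1, was at 27.5 and 26.8 TPM, Irf2bp2, a corepressor that binds Irf2, at 22.01 and 23.05 TPM, and the E protein gene Tcf3 at 9.56 and 7.28 TPM. Irf2bpl was lowest among those with counts, at 0.03 and 0.18 TPM. Spib, the relative of PU.1 in B cells and plasmacytoid dendritic cells, and Batf3, the partner of Irf8 in conventional dendritic cells, had 0 counts in both libraries. Spi1 RNA was thus detected and Batf3 RNA was not detectable at this depth. This does not speak for other partners of Irf8 on the list.

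Most interferon-induced targets of Irf9 did not reach 1 TPM in both libraries, nor did most nuclear protein-coding genes, of which 40.8% did. Among the 17 listed, 5 were at 1 TPM or more in both libraries and 11 were below it in both, with a list median of 0.260 TPM ± 0.0141 (SD, n = 2), close to the 0.17 and 0.20 TPM of all nuclear protein-coding genes. The membrane proteins Ifitm3, which blocks virus entry, and Bst2, which tethers virus particles, led at 13.6 and 13.1 TPM and at 9.67 and 14.4 TPM, followed by Ifit2 at 3.49 and 4.61 TPM. Ifi44 had 10 and 3 counts. Isg15, a ubiquitin-like modifier, had 1 and 18 counts, and Ifit1, which binds foreign RNA caps, had 5 and 46 counts. Rsad2, an antiviral enzyme gene, had 1 and 73 counts, so these 3 genes were higher in replicate 2, all at too few counts to pass the filter for a ratio. Xaf1, with 251 and 91 counts, and Ifit3, with 156 and 46, were lower in replicate 2 and were the 2 genes more than 2-fold apart among the 11 with a ratio. Oasl1 and Oas2, which also did not pass the filter, had 44 and 9 counts and 0 and 17 counts. No difference between this list and the family was tested, and 6.78% of all genes with a ratio were more than 2-fold apart. On rescaled TPM, 8 of the 17 reached 1 in both libraries.

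For 4 of these genes and for Cybb, a window is shown because it holds the letters that Irf proteins read. Not every match is printed. Ifit1 held a further response element core, with its first base at -85 relative to the start. Cybb held further cores at -124 and -29, and an Ets-Irf match at 3. In 30-base windows from RefSeq promoters (GRCm38.p6), capitals mark the response element core (GAAA, any 2 bases, GAAA) or its reverse complement, and each line runs 5′ to 3′ on the coding strand of the gene.
Isg15, chr4:156200871-156200900, − strand: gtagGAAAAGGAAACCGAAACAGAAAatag
Ifit1, chr19:34640775-34640804, + strand: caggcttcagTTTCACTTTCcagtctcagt
Bst2, chr8:71537580-71537609, − strand: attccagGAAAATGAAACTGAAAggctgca
Oas1a, chr5:120907523-120907552, − strand: ttctcggGAAATGGAAACTGAAAatctact
Cybb, chrX:9469473-9469502, − strand: tagcagtagcTTTCATTTTCcagtgtattt
Of the 13 genes of the list with a promoter window, 8 held this core in a window, as 3.99% of all 27025 genes with a window did; they were listed as known targets. Their levels spanned from Rsad2 at 0.00 and 0.18 TPM and Ifit1 at 0.01 and 0.17 TPM to Ifitm3, with Isg15 at 0.01 and 0.30 TPM and Oas1a, an RNA-sensing synthetase gene, at 2.03 and 3.38 TPM. The letters thus occurred in genes near 0 and in genes above 1 TPM alike.

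The list of Irf1 targets, not all of them genes of antigen presentation, had a higher median than the Irf9 targets. Of 11 genes, 8 reached 1 TPM in both libraries, with a list median of 3.48 TPM ± 0.389 (SD, n = 2). B2m, the light chain of class I molecules, was at 385 and 429 TPM, and the immunoproteasome subunit genes Psmb8 and Psmb9 at 78.3 and 84.7 TPM and at 27.7 and 24.1 TPM. Ciita, the activator of class II genes, had 7 and 12 counts, and Nos2 and Il12b, which are induced in activated macrophages, had 0 counts in both libraries.

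Of 6 genes that Irf8 is known to activate with PU.1, or in the monocyte and dendritic lineage, 5 reached 1 TPM in both libraries. The other was Il12b, also on the list of Irf1 targets, with 0 counts in both libraries. Cst3, a protease inhibitor, was at 92.2 and 101.6 TPM, and Cybb, an oxidase subunit gene, was at 13.3 and 18.0 TPM. Klf4, a factor of monocyte differentiation, was at 2.19 and 1.27 TPM. The list median was 8.91 TPM ± 1.67 (SD, n = 2). The 4 monocyte markers were all at 1 TPM or more in both libraries, as were the 6 neutrophil markers, beside 40.8% of nuclear protein-coding genes. Their list medians were unlike, at 66.4 TPM ± 12.7 for monocyte and 522 TPM ± 44.9 for neutrophil markers (SD, n = 2). Of 6 macrophage markers, 3 reached 1 TPM in both libraries, and of 6 T cell markers 0 did.

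Of the 5 feedback genes, 3 reached 1 TPM in both libraries, beside 40.8% of nuclear protein-coding genes. Rbck1, a ubiquitin ligase subunit that can degrade Irf3, was at 12.6 and 15.2 TPM, and Trim21, a ubiquitin ligase of several Irf proteins, was at 2.97 and 4.51 TPM. Socs3, an inhibitor of Jak kinases, was lowest at 0.44 and 0.47 TPM. No list's median or count was tested against other genes.

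**Figure D4:**
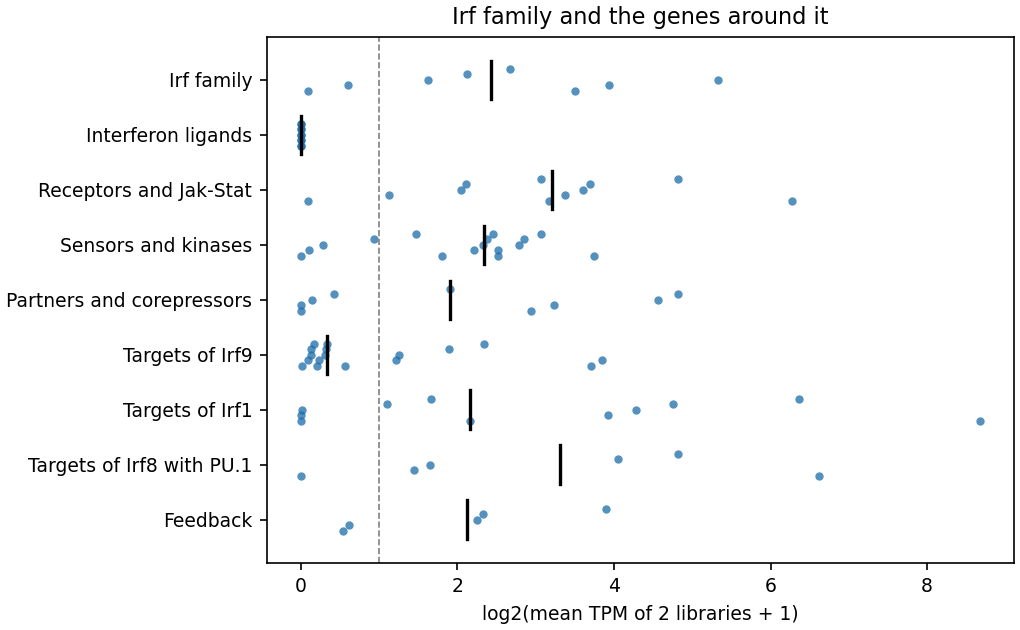
Each point is 1 gene, placed by log2 of its mean TPM over the 2 libraries plus 1, for the Irf family and the 8 lists around it; black lines mark the list medians and the dashed line 1 TPM. The 10 ligand genes lie at 0, and most targets of Irf9 lie below 1 TPM (list median 0.260 TPM).

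The label of the cells was checked on genes of the proteins used to sort them. All 4 genes of selected proteins, Kit, Cd34, Fcgr3 and Fcgr2b, were above 20 TPM in both libraries. Of 8 genes of excluded proteins, 7 were below 1 TPM in both, the exception being Itgam at 4.45 and 5.88 TPM. Ly6g was close to that limit, at 0.97 and 0.76 TPM, and on rescaled TPM 2 of the 8 reached 1 in both libraries. Of all nuclear protein-coding genes, 40.8% were at 1 TPM or more in both libraries.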

How the data were processed

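Total RNA of 2 libraries of 1 group was analysed. The authors deposited expected counts, TPM and FPKM per gene and transcript, with a percent share of each transcript in its gene and bounds of TPM intervals (a signal on the TPM scale). The deposited metadata name mm10 and GENCODE M4; the aligner and counting program were not given in the sources used here. Names, classes and coordinates came from GENCODE M21 on mm10, by identifier without version; promoter sequences came from RefSeq. Mb21d1 was matched as Cgas. Another gene covered by the family's numbering and some genes of the lists are not reported here; list counts and medians include the latter. Counts were rounded for edgeR 4.0.16 in R 4.3.3 (filterByExpr, trimmed mean of M values with factors 0.985 and 1.02, prior count 2), a step tested on simulated data. The GC trend was a lowess with a span of 0.3 (statsmodels 0.14.6). DESeq2 1.42.0 size factors were an alternative, as were other thresholds, pseudocounts and scales. From each list, the 3 highest genes by mean TPM, the lowest with counts and those with 0 counts are named, where reported; Stat2, Isg15, Ifit1, Ifit3, Rsad2, Xaf1, Oas1a, Oas2, Oasl1 and the named markers were named beyond this rule after their values were seen. Members and lists were chosen with earlier results of these data known. Counting limits cover counting error only.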

Additional observations from a re-analysis of the deposited data

How the results depend on the processing

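The count of members reaching the threshold was 6 at 1 TPM and 3 at 5 TPM; the pathway genes reaching it numbered 48 at 1 TPM and 26 at 5 TPM. With a pseudocount of 0.1 the family median was 2.11 and Irf8 exceeded the other members by 3.51; on rescaled TPM these were 4.41 and 3.47; with Irf4, below 0.1 TPM in both libraries, left out they were 2.65 and 2.95. Over the 7 genes with more than 1 transcript, the median share of the leading transcript was 69.5% as deposited. It was 55.6% on posterior means and 74.0% on expected counts. With 1 library alone, members at 1 TPM numbered 6 in either, and the family median ran from 2.33 to 2.45. The excess of Irf8 ran from 3.06 to 3.36, the median leading share from 69.4% to 69.5% and the pathway genes from 48 to 50. That median share was the value of Irf5 in replicate 1 and of Irf9 in replicate 2. Each of the 7 genes moved more than the median did, as Irf5 from 69.5% to 100% and Irf3 from 28.3% to 16.8%. With the exonic length of each gene, a scale chosen after seeing the data like the common effective length and the GC trend, 6 of 7 neighbouring pairs stayed apart. On that scale Irf5 came before Irf9. The log2 ratio of Irf9 between the libraries, -0.01, changed sign to 0.03 with library totals alone and to 0.03 with the GC trend removed. The order and the ratios between libraries need both libraries and have no value from 1. No paired analysis was possible because there is 1 group. Depth limits Irf4 and Irf7, which have fewer than 100 counts, and their transcript shares.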
